A study of Mus musculus with 7 samples.

Results

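Neuronal cytoskeleton genes were followed in mouse embryonic stem (ES) cells labelled as Argonaute 2 (Ago2) knockout and in cells driven towards extra-embryonic endoderm (XEN). The set holds 10 genes, taken by name out of 43629 genes in the count table: the tubulin gene Tubb3, the microtubule-associated genes Map2 and Dcx, the stathmin genes Stmn2, Stmn3 and Stmn4, and the intermediate filament genes Nes, Ina, Nefl and Nefm. All 10 were matched by Ensembl identifier and all 10 passed the filter on low counts.

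Libraries of polyadenylated RNA from 3 groups were compared, all from E14 cells of 129/Ola background. Ago2-knockout cells after 5 days of XEN differentiation (KO XEN) gave 2 libraries, 1 from line C4 and 1 from line 5-3. Wild-type E14 cells after the same treatment (WT XEN) are represented by 2 libraries named A and B. The ES cells with the same knockout, not differentiated (KO ESC), are represented by 3, named C4, 5-3_1 and 5-3_2. The XEN protocol used 10 ng/mL of activin A together with 0.1 µM all-trans retinoic acid in medium with serum, and ES cells were grown with LIF on gelatine. Undifferentiated wild-type cells are not analysed here, so that WT XEN differed from KO ESC in both genotype and differentiation, which cannot be told apart. Line 5-3 supplied 2 of the 3 KO ESC libraries. Whether replicate libraries represent independent cultures is not stated. The p-values rest on the spread between these libraries, pooled over the groups. In the knockout groups this spread includes the difference between lines C4 and 5-3, and within line 5-3 or wild type it may be technical.

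Neurons build their processes on stable bundles of microtubules and on a flexible lattice of intermediate filaments. Tubulins form the microtubules, microtubule-associated proteins bundle and stabilise them, and stathmins bind free tubulin and favour disassembly. Among the filaments nestin is typical of dividing neural progenitors, and of several muscle and mesenchymal precursors, whereas α-internexin and the neurofilament chains are typical of postmitotic neurons. Retinoic acid is widely used to drive ES cells towards neural fates, and in the embryo the XEN fate gives the yolk sac endoderm.

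Library totals were 13941826 counts for KO XEN C4, 33389566 for KO XEN 5-3, 36427340 and 38595537 for WT XEN, and 39998808 to 48650113 for KO ESC. The targeted gene Ago2 stood at 122 CPM (the count per 1000000 counts of the scaled library size) in KO XEN C4 and 9.94 CPM in KO XEN 5-3, against 394 and 432 CPM in WT XEN. In KO ESC it stood at 94.4 CPM in the library labelled C4 and at 9.37 and 9.65 CPM in line 5-3. The log2 fold change of -2.66 ± 1.36 in KO XEN against WT XEN did not pass (adjusted p = 0.145, edgeR). Line C4 thus held more Ago2 transcript than line 5-3, and results are also given without both C4 libraries where that changes a call. The labelled fate was checked by its markers: 16 extra-embryonic endoderm markers summed to 576 and 1078 CPM in KO XEN, against 25690 and 31880 CPM in WT XEN, with 339 to 357 CPM in KO ESC. Of these markers, 0 rose and 15 fell in KO XEN against WT XEN, whereas against KO ESC 9 rose, 2 fell and 5 did not pass, with a median log2 fold change of 2.87. Gata6, a transcription factor of primitive endoderm named after its values were seen, stood at 96.6 and 169 CPM in KO XEN, against 225 and 328 CPM in WT XEN, with at most 2.98 CPM in KO ESC. The 10 ES cell markers summed to 122 and 137 CPM in KO XEN, against 447 and 463 CPM in WT XEN, with 3905 to 4271 CPM in KO ESC.

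The stretches before the start sites of 3 members are shown because these genes stand for the opposite patterns described below: Nes was highest in KO XEN, and Ina and Stmn3 were highest in KO ESC. The Nes window reaches 15 bases into the gene as GENCODE places it. Each is the 250 bases before the start site in RefSeq (GRCm38.p6), written 5′ to 3′ on the strand of the gene. Capitals mark matches, on either strand, to the motifs listed after the sequences.
Nes (chr3:87970843-87971092, plus strand): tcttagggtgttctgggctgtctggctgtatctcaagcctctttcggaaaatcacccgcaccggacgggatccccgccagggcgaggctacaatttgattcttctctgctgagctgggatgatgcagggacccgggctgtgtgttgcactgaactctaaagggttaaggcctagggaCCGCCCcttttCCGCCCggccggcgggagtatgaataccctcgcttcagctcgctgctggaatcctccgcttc
Ina (chr19:47014431-47014680, plus strand): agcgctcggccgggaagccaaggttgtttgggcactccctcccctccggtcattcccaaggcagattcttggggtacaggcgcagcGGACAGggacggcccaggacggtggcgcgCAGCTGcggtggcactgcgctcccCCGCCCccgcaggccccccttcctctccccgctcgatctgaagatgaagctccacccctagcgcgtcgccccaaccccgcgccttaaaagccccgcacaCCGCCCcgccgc
Stmn3 (chr2:181314501-181314750, minus strand): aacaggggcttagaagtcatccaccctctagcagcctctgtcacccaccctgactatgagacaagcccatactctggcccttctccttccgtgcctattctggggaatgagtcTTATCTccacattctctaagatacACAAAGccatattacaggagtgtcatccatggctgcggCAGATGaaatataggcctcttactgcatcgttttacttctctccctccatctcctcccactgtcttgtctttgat

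The motifs were GGGCGG as the GC box and CANNTG as the E-box, which basic helix-loop-helix factors bind. For SOX factors the letters were ACAAAG, for GATA factors they were AGATAA, and the promoter boxes were CCAAT and, for the TATA box, TATAAA. The RE1 element, which the neuronal gene repressor REST binds, was searched by its left part TTCAGCACC and by its right part GGACAG. Windows for 6 of the 10 members were found in RefSeq, and those of Tubb3, Dcx and Map2 are not printed. The Nes window held 2 GC boxes, and the Ina window held 2 GC boxes, 1 E-box and 1 right part of RE1. The Stmn3 window held 1 E-box, 1 GATA motif and 1 SOX motif. Among 32841 windows of the same length, 32.7% held a GC box, 66.2% an E-box, 33.9% a CCAAT box, 12.4% a TATA box, 9.99% the GATA motif, 16.5% the SOX motif, 0.301% the left part and 18.7% the right part of RE1. The GC share of the windows was 58.8% for Nes, 70.8% for Ina and 48.8% for Stmn3, against a median of 52.4% over all windows. These matches describe letters only.

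Between the genotypes after the same treatment, most members differed. Of the 10 genes, 7 were higher in KO XEN, 0 were lower and 3 did not pass (edgeR quasi-likelihood test, Benjamini-Hochberg adjusted p below 0.05 over all genes), where 46.2% of all 18426 genes tested were called, 22.3% higher and 23.9% lower. The median log2 fold change of the 10 genes was 2.45, against 0.00 over all genes tested. When KO XEN was compared with KO ESC, the set divided about as all genes did. Dcx, Stmn4 and Nes (3 genes) rose, 4 fell and 3 missed the threshold. Of all genes 69.0% were called, 34.8% higher and 34.3% lower. The median of the set was -0.35 against -0.08 over all genes. In WT XEN against KO ESC 2 were higher, 4 lower and 4 did not pass, where 62.5% of all genes were called, 32.2% higher and 30.3% lower, with a median of -0.33 against -0.03. The 3 comparisons share their groups in pairs, so their values are given side by side and not as separate evidence.

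**Figure D1:**
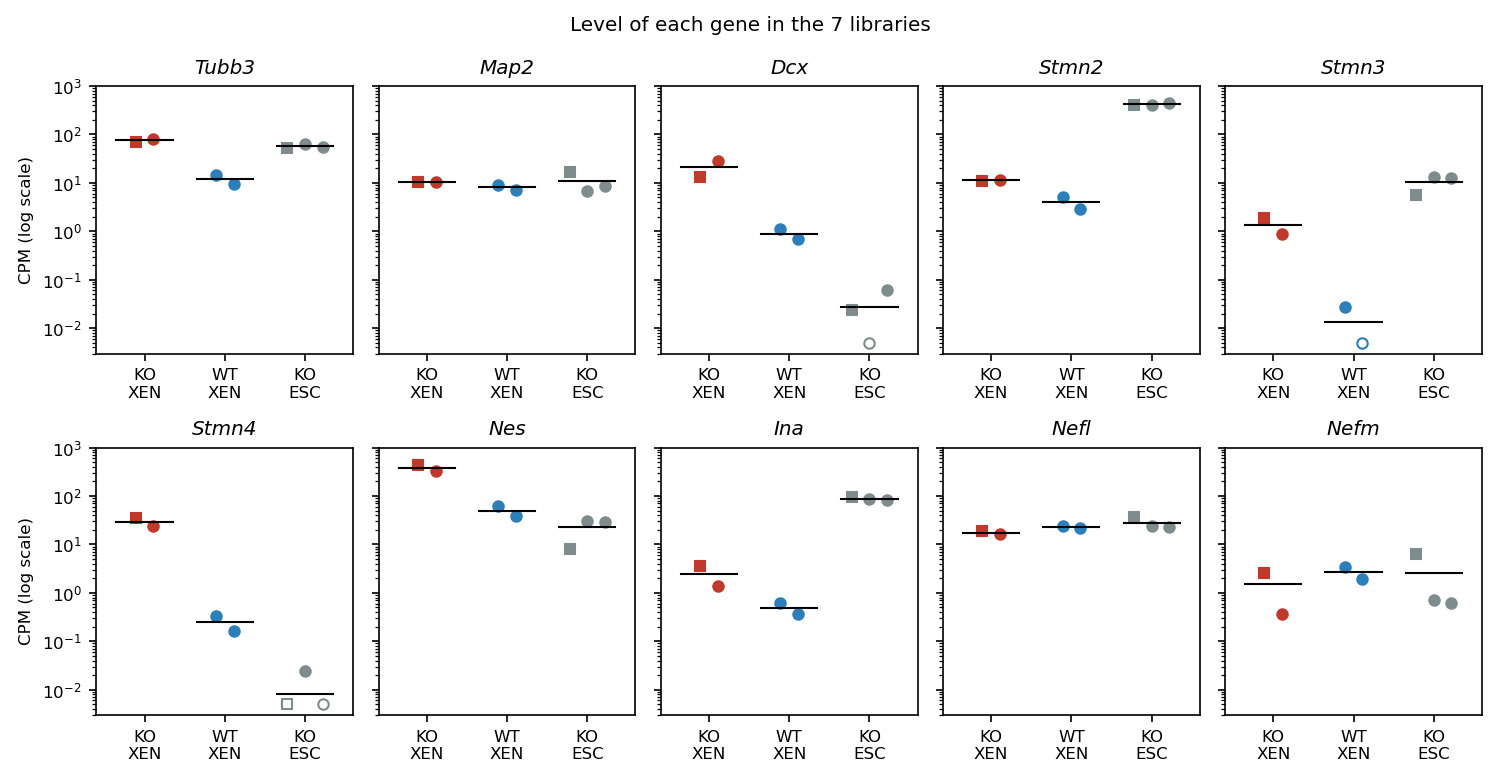
CPM of each gene (log axis) in KO XEN, WT XEN and KO ESC, 1 point per library, squares for line C4 and circles for line 5-3 and wild type, with a black bar at the group mean. Open symbols at the bottom are libraries with 0 counts. Dcx and Stmn4 step down from KO XEN to WT XEN to KO ESC, whereas Stmn2, Stmn3 and Ina are highest in KO ESC and lowest in WT XEN.

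Tubb3 encodes class III β-tubulin, the isotype used as a general marker of young neurons (ENSMUSG00000062380, chromosome 8, 123411424 to 123422015, mm10). It stood at 69.6 CPM in KO XEN C4 and 82.2 CPM in KO XEN 5-3, against 14.4 and 9.57 CPM in WT XEN A and B. KO ESC libraries held 53.5, 63.2 and 54.1 CPM. Tubb3 was thus low only in the 2 WT XEN libraries, and the KO XEN libraries lay above all others. Its log2 fold change in KO XEN against WT XEN was 2.67 ± 0.24 (SE, adjusted p = 0.00022, edgeR), and in WT XEN against KO ESC it was -2.25 ± 0.22 (adjusted p = 8.41e-05, edgeR). Between KO XEN and KO ESC the change of 0.42 ± 0.20 did not pass (adjusted p = 0.0952, edgeR), and it passed without the WT XEN B library, which enters through the shared spread (0.42, adjusted p = 0.0465). β-Tubulin genes are close paralogs, and how reads shared between them were counted is not given in the sources used here.

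Map2 encodes a microtubule-associated protein of dendrites (ENSMUSG00000015222, chromosome 1, 66175273 to 66442583). It stood at 10.5 and 10.6 CPM in KO XEN, against 9.12 and 7.02 CPM in WT XEN, and at 16.6, 6.89 and 8.63 CPM in KO ESC C4, 5-3_1 and 5-3_2. The groups lay within a narrow band, and Map2 passed in none of the comparisons, with log2 fold changes of 0.38 ± 0.41 in KO XEN against WT XEN, -0.02 ± 0.38 in KO XEN against KO ESC and -0.41 ± 0.38 in WT XEN against KO ESC (adjusted p = 0.479, 0.963 and 0.373, edgeR). Without the KO ESC C4 library the last 2 values turned positive (0.35 and 0.04).

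Dcx, on chromosome X (ENSMUSG00000031285, 143855842 to 143933311), encodes doublecortin, a microtubule-associated protein of migrating young neurons. It was counted 182 and 924 times in KO XEN C4 and 5-3, against 40 and 25 times in WT XEN, and 1, 0 and 3 times in KO ESC. Those counts correspond to 13.2 and 28.4 CPM in KO XEN, against 1.10 and 0.691 CPM in WT XEN and at most 0.0600 CPM in KO ESC. Dcx was therefore all but missing in KO ESC, low in WT XEN and well above it in both KO XEN libraries, with no overlap between groups. Its log2 fold change in KO XEN against WT XEN was 4.54 ± 0.58 (adjusted p = 0.000745, edgeR), and without KO XEN 5-3 it was 3.80. The ratio of summed counts per library size was 796-fold in KO XEN over KO ESC (95% counting interval 310 to 2928) and 29.8-fold in WT XEN over KO ESC (11.1 to 113). These intervals cover counting error only.

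Stathmins of the neuronal branch, anchored to Golgi and vesicle membranes, split into opposite patterns. Stmn2, which encodes SCG10 of growth cones (ENSMUSG00000027500, chromosome 3, 8509360 to 8561606), stood at 11.2 and 11.4 CPM in KO XEN, against 5.04 and 2.93 CPM in WT XEN. In KO ESC it stood at 412, 399 and 439 CPM. This gene was thus an abundant transcript of the undifferentiated knockout cells and fell in KO XEN by 5.21 ± 0.26 on the log2 scale (adjusted p = 2.81e-06, edgeR). Its remaining level was still higher in KO XEN than in WT XEN, by a log2 fold change of 1.50 ± 0.24 (adjusted p = 0.00194, edgeR).

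Stmn3, which encodes SCLIP (ENSMUSG00000027581, chromosome 2, 181306459 to 181314500), followed the same order at lower levels. Its counts were 26 and 28 in KO XEN, against 1 and 0 in WT XEN, and 233, 563 and 644 in KO ESC. With 54 counts against 1, the ratio of KO XEN over WT XEN was 84.8-fold with a 95% counting interval from 14.6 to 3410, so its size is poorly fixed although the gene passed (fitted log2 fold change 6.26 ± 1.01, adjusted p = 0.00192, edgeR), and the fitted value was 8.52 without WT XEN A. KO ESC exceeded WT XEN 785-fold (141 to 31040). KO XEN lay below KO ESC, with a log2 fold change of -3.01 ± 0.58 (adjusted p = 0.00197, edgeR), or -3.62 without KO XEN C4 and -3.93 without both C4 libraries.

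Stmn4, which encodes RB3 of the brain (ENSMUSG00000022044, chromosome 14, 66344296 to 66361680), went the other way. It was counted 481 and 768 times in KO XEN, against 12 and 6 times in WT XEN, and 0, 1 and 0 times in KO ESC. These counts amount to 34.9 and 23.6 CPM in KO XEN, against 0.329 and 0.166 CPM in WT XEN. The gene was nearly silent in KO ESC and WT XEN and plainly detected in both KO XEN libraries, with a log2 fold change of 6.86 ± 0.52 in KO XEN against WT XEN (adjusted p = 0.000165, edgeR). The count ratio of KO XEN over KO ESC was 3597-fold (644 to 142200), and that of WT XEN over KO ESC was 33.0-fold (5.21 to 1375).

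Nes, the nestin gene (ENSMUSG00000004891, chromosome 3, 87971078 to 87980451), was the most abundant member in KO XEN. It stood at 425 and 331 CPM in KO XEN, against 60.9 and 38.5 CPM in WT XEN. KO ESC C4 held 8.21 CPM, and the 5-3 libraries held 30.3 and 28.8 CPM. Both KO XEN libraries lay several fold above all 5 others, with log2 fold changes of 2.93 ± 0.57 against WT XEN (adjusted p = 0.00446, edgeR) and 4.07 ± 0.51 against KO ESC (adjusted p = 0.0002, edgeR). WT XEN lay above KO ESC in every library, yet its log2 fold change of 1.15 ± 0.48 did not pass (adjusted p = 0.0688, edgeR). That value passed without KO ESC C4 (0.73, adjusted p = 0.0324), without both C4 libraries (0.75, 0.0433), with line as a block (1.42, 0.032) and in DESeq2 (1.13, 0.035).

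Ina encodes α-internexin, a filament protein of early neurons (ENSMUSG00000034336, chromosome 19, 47014698 to 47025327). It stood at 3.63 and 1.35 CPM in KO XEN, against 0.630 and 0.359 CPM in WT XEN, and at 94.6, 85.0 and 83.2 CPM in KO ESC. Like Stmn2, it was mainly a transcript of the undifferentiated knockout cells, with log2 fold changes of -5.23 ± 0.43 in KO XEN and -7.46 ± 0.49 in WT XEN against KO ESC (adjusted p = 2.23e-05 and 1.46e-05, edgeR), the first at -6.01 without KO XEN C4. It was higher in KO XEN than in WT XEN by a log2 fold change of 2.23 ± 0.49 (adjusted p = 0.00718, edgeR). The call was lost without WT XEN B (1.86, adjusted p = 0.0549), and the value dropped to 1.45 without KO XEN C4. Exons of Ina share 456 bases with those of Nt5c2 on the opposite strand, and the strand setting of the counting is not given in the sources used here.

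Nefl and Nefm encode the light and medium neurofilament chains of axons, and neither was higher in KO XEN than in WT XEN. Nefl (ENSMUSG00000022055, chromosome 14, 68083863 to 68089095) stood at 18.5 and 16.3 CPM in KO XEN, against 24.4 and 22.2 CPM in WT XEN, and at 36.3, 23.6 and 23.3 CPM in KO ESC. The KO XEN libraries were the lowest of the 7, with log2 fold changes of -0.42 ± 0.26 against WT XEN (adjusted p = 0.217, edgeR) and -0.67 ± 0.24 against KO ESC (adjusted p = 0.0348, edgeR). The first passed without KO ESC C4 (-0.50, adjusted p = 0.0397). The second was lost without KO XEN C4 (adjusted p = 0.086), without KO XEN 5-3 (0.124) and without both C4 libraries (0.0595).

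Nefm (ENSMUSG00000022054, chromosome 14, 68082590 to 68124846) spread widely between the lines. It stood at 2.61 CPM in KO XEN C4 and 0.369 CPM in KO XEN 5-3, against 3.34 and 1.94 CPM in WT XEN, and at 6.39 CPM in KO ESC C4 and 0.697 and 0.620 CPM in KO ESC 5-3. In both states C4 lay above 5-3, by 7.08-fold in KO XEN and 9.70-fold in KO ESC. The log2 fold change in KO XEN against WT XEN was -0.91 ± 1.28 (adjusted p = 0.592, edgeR), and it passed with line as a block (-1.44, adjusted p = 0.0286) and without both C4 libraries (-2.83, adjusted p = 0.0195). Without both C4 libraries WT XEN also exceeded KO ESC (log2 fold change 2.0, adjusted p = 0.0112). Annotated exons of Nefl and Nefm share 1108 bases on opposite strands, so reads of the one could count for the other.

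**Figure D2:**
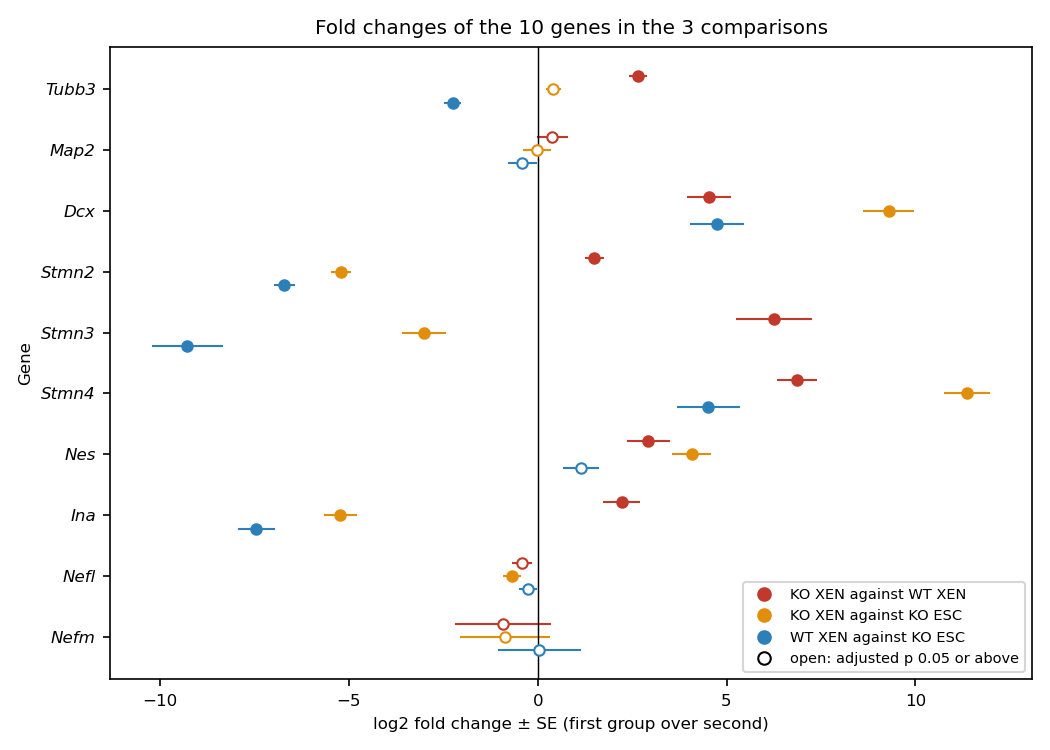
Log2 fold change ± SE of the 10 genes (rows) in KO XEN against WT XEN (red), KO XEN against KO ESC (orange) and WT XEN against KO ESC (blue), with open points where adjusted p was 0.05 or above. For Stmn2, Stmn3 and Ina the red points lie right of 0 and the orange and blue points left of it, whereas for Dcx and Stmn4 all 3 lie right of 0. Fitted values of Dcx, Stmn3 and Stmn4 against groups with 0 to 4 counts depend on the prior count.

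Calls in both comparisons of KO XEN sorted the members. Dcx, Stmn4 and Nes, 3 genes, were higher than in both other groups, whereas Stmn2, Stmn3 and Ina, also 3 genes, were higher than in WT XEN and lower than in KO ESC. Tubb3 was higher than in WT XEN only, Nefl was lower than in KO ESC only, and Map2 and Nefm passed in neither. The share of all genes with each pair of calls was not computed, so whether the set differs from all genes here was not tested. Of all genes tested, 46.2% were called in KO XEN against WT XEN and 69.0% in KO XEN against KO ESC. Libraries of the 2 groups did not overlap for 9 members in KO XEN against WT XEN, where this held for 76.5% of all genes tested. The same was true of 8 members in KO XEN against KO ESC, where it held for 81.0% of all genes, and of 7 in WT XEN against KO ESC, where it held for 76.1%.

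Levels of different genes were compared as CPM per kilobase of annotated exon. The summed level of the 10 genes was 134 and 119 in KO XEN, against 26.9 and 19.2 in WT XEN, with 151 to 156 for KO ESC. Similar sums in KO XEN and KO ESC had a different makeup: Nes made up 49.4% and 43.4% of the sum in KO XEN and 0.850% to 3.04% in KO ESC, whereas Stmn2 made up 1.49% and 1.71% in KO XEN and 45.8% to 50.1% in KO ESC. Tubb3 held 27.8% and 37.0% for KO XEN, 28.6% and 26.6% for WT XEN and 18.5% to 21.8% for KO ESC. In bulk RNA, fewer cells of a type and less RNA per cell cannot be told apart.

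**Figure D3:**
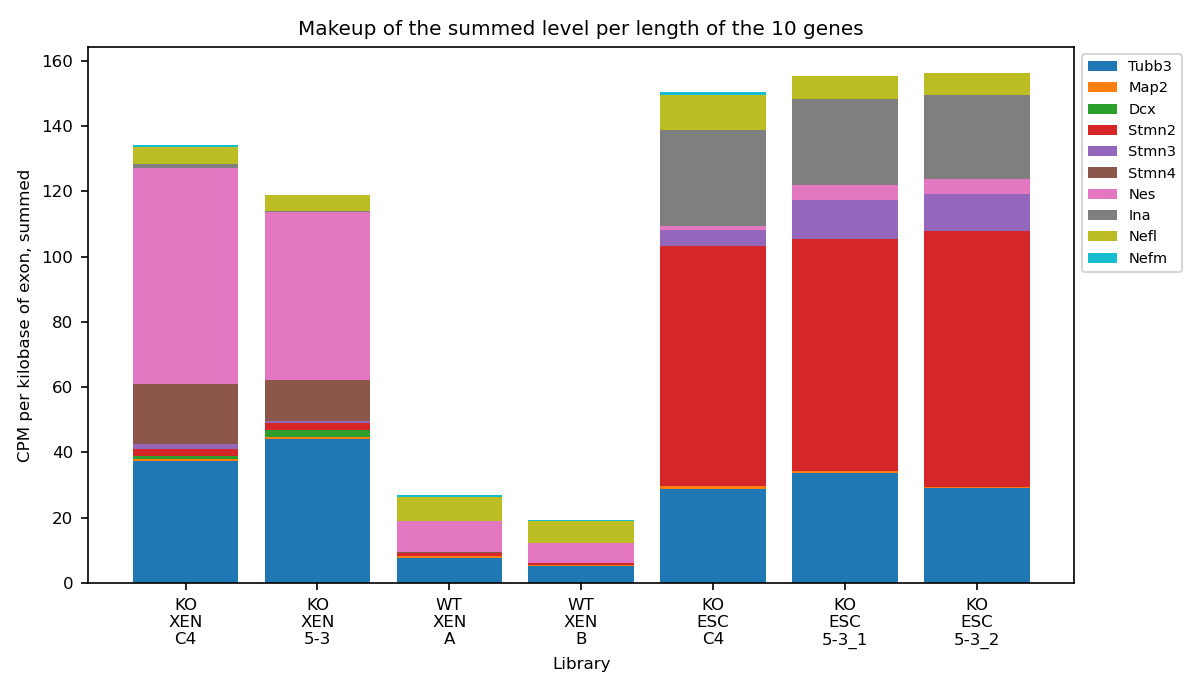
Stacked CPM per kilobase of exon of the 10 genes in each library. The KO XEN bars (134 and 119) are mostly Nes, Tubb3 and Stmn4, the WT XEN bars (26.9 and 19.2) mostly Nes, Tubb3 and Nefl, and the KO ESC bars (151 to 156) mostly Stmn2, Tubb3 and Ina.

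In KO XEN the order of mean CPM per kilobase was Nes (58.9), Tubb3 (40.7), Stmn4 (15.3) and Nefl (5.16), each clear of the next in both libraries. Stmn2 (2.01), Dcx (1.65), Stmn3 (1.21), Ina (0.769) and Map2 (0.640) followed, each overlapping the next, and Nefm (0.258) lay below Map2 in both libraries. In WT XEN, Nes (7.74), Nefl (6.89) and Tubb3 (6.41) overlapped at the top, and the other 7 lay below 1. In KO ESC, Stmn2 (74.4) led, Tubb3 (30.5) overlapped Ina (27.1), Stmn3 (9.39) overlapped Nefl (8.21), and Stmn4 (0.00418) and Dcx (0.00222) came last.

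The 2 knockout lines were compared within each state. Tubb3 and Stmn2 barely differed, with C4 over 5-3 at 0.847 and 0.982 in KO XEN and 0.912 and 0.985 in KO ESC. Nes was 1.29-fold higher in C4 than in 5-3 in KO XEN and stood at 0.278 of 5-3 in KO ESC, and Stmn3 likewise at 2.19 in KO XEN and 0.424 in KO ESC. Map2 of C4 stood at 10.5 CPM in KO XEN, against 16.6 CPM in KO ESC, and in 5-3 at 10.6 CPM in KO XEN, against a mean of 7.76 CPM in KO ESC. The difference between lines in the change with differentiation passed for 0 of the 10 genes and for 0.00% of all genes tested (edgeR, 2 residual degrees of freedom, 1844 genes or 10.0% at an unadjusted p below 0.05), with adjusted p of the members from 0.346 (Nes, 2.21 ± 0.46 on the log2 scale) to 1. No other tool was run on it.

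**Figure D4:**
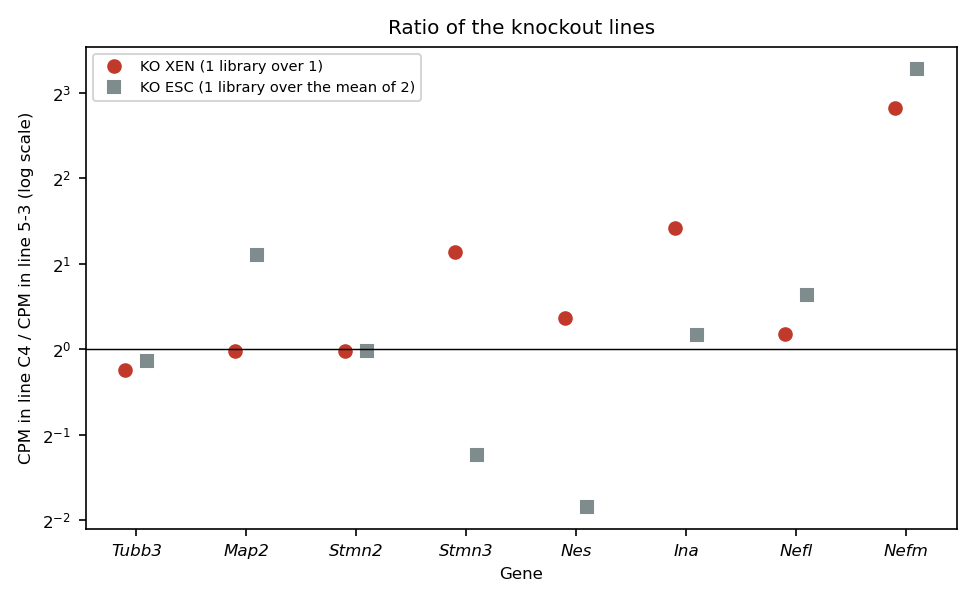
Ratio of CPM in line C4 to CPM in line 5-3 (log axis) for the 8 genes with a measurable level in KO ESC, as circles for KO XEN and squares for KO ESC. Nefm lies far above 1 in both states (7.08 and 9.70), Stmn2 lies at 1 in both, and Nes and Stmn3 lie on opposite sides of 1.

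Most of the other cytoskeleton genes of neurons were also higher in KO XEN. Of 26 tested, 18 were higher in KO XEN than in WT XEN, 1 was lower and 7 did not pass. Their median log2 fold change was 2.20, and of all genes tested 22.3% were higher and 23.9% lower. Tuba1a, the main α-tubulin of young neurons, averaged 1068 ± 247 CPM in KO XEN, against 115 ± 65.4 CPM in WT XEN (SD, n = 2 each; log2 fold change 3.21 ± 0.40). Map1a, which binds microtubules in mature neurons (58.1 ± 11.8 and 7.25 ± 0.362 CPM), the doublecortin-like kinase Dclk2 (57.5 ± 7.65 and 7.16 ± 0.421 CPM) and the kinesin adaptor Fez1 (14.2 ± 5.21 and 1.17 ± 0.557 CPM) were higher too, with adjusted p of these 4 from 0.000254 to 0.00067 (edgeR). Ank2, an ankyrin that links membrane proteins to spectrin, was lower (12.6 ± 3.83 and 42.0 ± 5.19 CPM, adjusted p = 0.00806, edgeR). The number lower was 3 without KO ESC C4 or without both C4 libraries and 2 without KO XEN C4 or WT XEN B, with line as a block, with no filter on low counts, with only the 2 groups compared and in DESeq2. In KO XEN against KO ESC the same list gave 9 higher, 9 lower and 8 that did not pass. These counts lay near the shares over all genes (34.8% higher and 34.3% lower). In WT XEN against KO ESC the list gave 2, 15 and 9. Of all genes 32.2% were higher and 30.3% lower there. The last comparison gave 4 higher without KO ESC C4, without both C4 libraries and with line as a block.

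Tubulin genes used in most cells gave 1 higher, 1 lower and 4 that did not pass out of 6 in KO XEN against WT XEN. Their median log2 fold change was 0.27, and of all genes tested 22.3% were higher and 23.9% lower. Tubb5 averaged 1943 ± 283 CPM in KO XEN, against 1298 ± 121 CPM in WT XEN (0.58 ± 0.17, adjusted p = 0.024, edgeR), and Tubb4b 210.1 ± 4.35 and 334 ± 51.0 CPM (-0.67 ± 0.17, adjusted p = 0.0133, edgeR). These 2 calls moved with the processing and with single libraries. With all libraries kept, 2 were higher with upper-quartile scaling and in DESeq2 and 0 with no filter on low counts. With libraries left out, 0 were higher without KO ESC 5-3_1, KO ESC 5-3_2, WT XEN A, WT XEN B or KO XEN 5-3, 2 were higher without KO ESC C4, 0 were lower without either KO XEN library or without both C4 libraries, and 2 were lower without KO ESC 5-3_2. Of 4 other intermediate filament genes 3 were higher and 0 lower, with a median of 2.69: Vim, vimentin of mesenchymal and progenitor cells (3.87 ± 0.50), the nestin partner Synm (3.17 ± 0.40) and the muscle desmin gene Des (2.20 ± 0.32).

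Of 20 transcription factors that specify neurons, 10 were too low to be tested. Of the other 10, 4 were higher, 0 lower and 6 did not pass in KO XEN against WT XEN. Their median log2 fold change was 0.37, and of all genes tested 22.3% were higher and 23.9% lower in this comparison. The 20 genes summed to 30.0 and 35.9 CPM in KO XEN, against 45.8 and 37.6 CPM in WT XEN, with 39.9 to 59.4 CPM in KO ESC. Onecut2, named after its values were seen, made up 9.29 and 18.0 CPM of the sum in KO XEN. In WT XEN it made up 35.8 and 31.0 CPM. The order of the sums between the XEN groups thus rests on Onecut2, which did not pass there (adjusted p = 0.101, edgeR). Of the 20 genes, 7 had 0 counts in both KO XEN libraries. Among those 7 were the proneural factors Neurog1 and Neurog2, given here after their values were seen. Isl1, a factor of motor and sensory neurons and of heart precursors, was higher (4.25 ± 1.70 CPM in KO XEN, against 0.591 ± 0.171 CPM in WT XEN). Insm1 (0.397 ± 0.0479 and 0.0275 ± 0.000177 CPM), Neurod1 (1.82 ± 1.53 and 0.275 ± 0.193 CPM) and Ebf1 (4.64 ± 2.66 and 1.22 ± 0.596 CPM) were higher too. Insm1 had only 1 count in each WT XEN library, against 5 and 14 in KO XEN. Isl1 was also higher than in KO ESC, Ebf1 did not pass there, and Insm1 and Neurod1 were lower (5.29 and 28.5 CPM in KO ESC). In KO XEN against WT XEN the adjusted p of these 4 genes ran from 0.00284 to 0.0362 (edgeR). The number higher was 2 without WT XEN B, and 1 was lower without KO ESC C4, with only the 2 groups compared and in DESeq2.

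In KO XEN against WT XEN, 22.3% of all genes tested were higher and 23.9% lower. Neuronal RNA-binding proteins gave 3 higher, 0 lower and 6 that did not pass of 9 tested there (median log2 fold change 1.38). They were Srrm4, which drives neural microexon splicing (13.3 ± 0.470 CPM in KO XEN, against 1.53 ± 0.671 CPM in WT XEN), and the splicing factors Nova2 (17.0 ± 0.959 and 2.24 ± 1.10 CPM) and Nova1 (4.88 ± 0.632 and 1.87 ± 0.285 CPM), with adjusted p from 0.000658 to 0.00436 (edgeR). The number higher was 5 without KO XEN 5-3. In KO XEN against KO ESC the RNA-binding list gave 1 higher (2 in DESeq2), 4 lower and 4 that did not pass. There Srrm4 was higher, Nova2 did not pass (13.9 ± 7.51 CPM in KO ESC) and Nova1 was lower (11.4 ± 0.218 CPM in KO ESC). Repressors of neuronal genes in other cells gave 0 higher and 2 lower of 7 in KO XEN against WT XEN, with a median of 0.11. Rest stood at 119 and 137 CPM in KO XEN, against 93.0 and 112 CPM in WT XEN, with 633 to 694 CPM in KO ESC. It did not pass between the XEN groups (0.32 ± 0.16, adjusted p = 0.131, edgeR), nor did Ptbp1, a splicing repressor of neuronal exons (0.23 ± 0.18, adjusted p = 0.326, edgeR). The 2 lower genes were Ctdspl, a phosphatase that works with REST (-1.41 ± 0.32), and the REST corepressor Rcor1 (-0.74 ± 0.18). Neither was called without WT XEN B or without KO XEN C4, and 1 was called without both C4 libraries.

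Synapse and secretory vesicle genes gave 16 higher, 0 lower and 11 that did not pass of 27 tested in KO XEN against WT XEN. Their median log2 fold change was 2.58. Shares over all genes tested were 22.3% higher and 23.9% lower there, and 34.8% and 34.3% in KO XEN against KO ESC. The complexin gene Cplx2 averaged 149 ± 29.8 CPM in KO XEN, 12.9 ± 2.23 CPM in WT XEN and 0.320 ± 0.0733 CPM in KO ESC. Dlg4, the postsynaptic scaffold PSD-95 (61.5 ± 8.07 CPM in KO XEN, against 6.31 ± 0.757 CPM in WT XEN), the syntaxin Stx1a (48.5 ± 2.91 and 8.13 ± 1.68 CPM) and the calcium sensor Syt1 (32.4 ± 5.36 and 1.95 ± 0.143 CPM) were higher too, with adjusted p of the 4 from 0.00015 to 0.000383 (edgeR). The number higher was 10 without WT XEN B, and without both C4 libraries 10 were higher and 1 was lower (1 also without KO XEN C4). In KO XEN against KO ESC the list gave 13 higher, 5 lower and 9 that did not pass, and the number lower was 3 without KO ESC C4, WT XEN B or KO XEN 5-3.

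**Figure D5:**
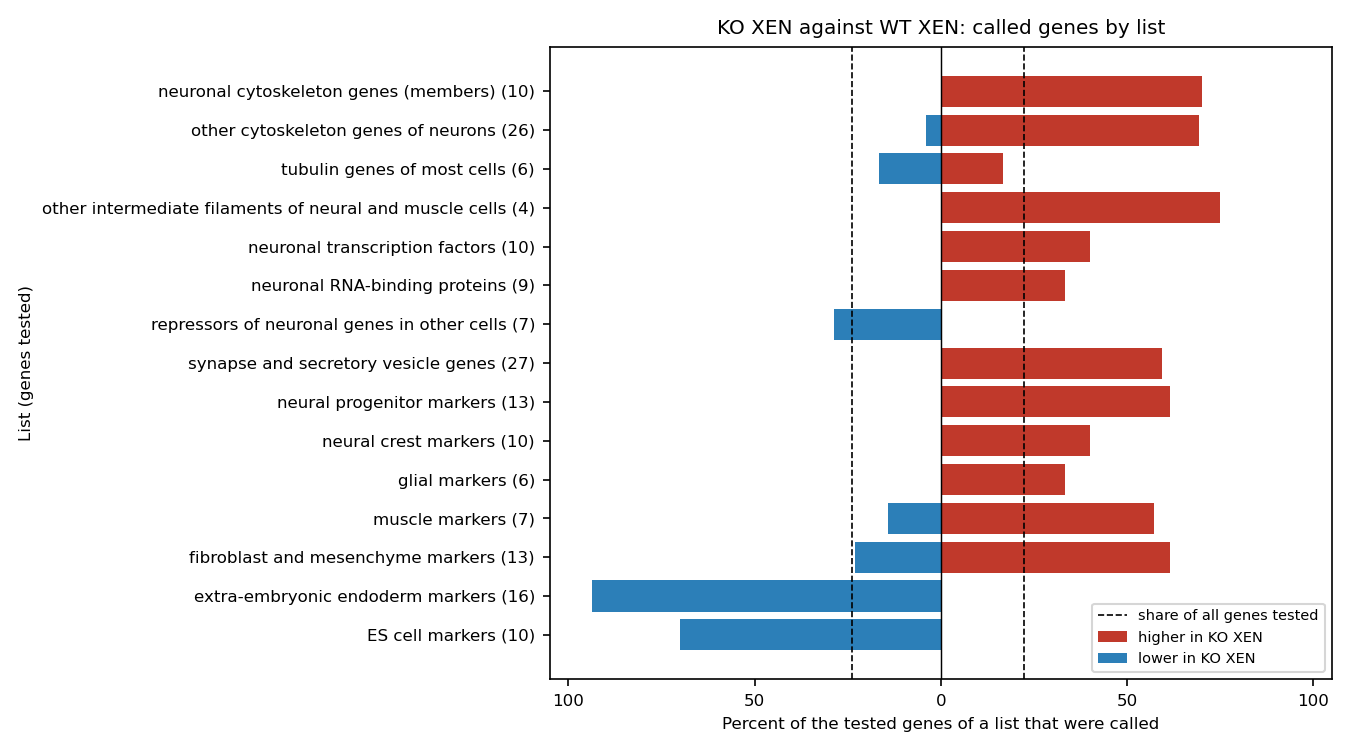
Percent of the tested genes of each list that were called higher (red, right) or lower (blue, left) in KO XEN against WT XEN, with the number tested in brackets and dashed lines at the shares over all 18426 genes (22.3% and 23.9%). The members, the other cytoskeleton genes, the synapse genes and the progenitor and mesenchyme markers lie mostly right, and the endoderm and ES cell markers lie left.

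Markers of other cell types that also hold some of these transcripts moved in KO XEN against WT XEN, and their part in the results was not tested. Shares over all genes tested were 22.3% higher and 23.9% lower in this comparison. Neural progenitor markers gave 8 higher, 0 lower and 5 that did not pass of 13 tested, with a median log2 fold change of 2.04 in KO XEN against WT XEN (1 lower without WT XEN B or with line as a block). Their 15 genes summed to 196 and 242 CPM in KO XEN, against 81.5 and 46.5 CPM in WT XEN, with 396 to 542 CPM in KO ESC. Sox2, which ES cells also express, made up 322 to 386 CPM of the sum in KO ESC. Zic1 (7.55 ± 0.815 CPM in KO XEN, against 0.646 ± 0.288 CPM in WT XEN), Msi1 (30.0 ± 6.16 and 7.92 ± 0.689 CPM) and Sox9 (32.3 ± 5.93 and 3.69 ± 0.132 CPM) were higher, with adjusted p from 0.00056 to 0.000969 (edgeR). Hes5 had 0 counts in all 4 XEN libraries, and the neural plate factor Sox1 averaged 0.134 CPM in KO XEN, against 0.179 CPM in WT XEN, both named after their values were seen.

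Fibroblast and mesenchyme markers gave 8 higher, 3 lower and 2 that did not pass of 13 in KO XEN against WT XEN, with a median log2 fold change of 2.34, and summed to 3602 and 5275 CPM in KO XEN, against 1177 and 1190 CPM in WT XEN and at most 50 CPM in KO ESC, with 1 of the 13 at 0 in KO XEN. Col5a1, a fibrillar collagen chain (3.88 ± 0.34), the mural cell receptor Pdgfrb (3.41 ± 0.30), Prrx1 (3.55 ± 0.54) and Twist1 (2.57 ± 0.37), both mesenchymal transcription factors, were higher, and Pdgfra, a receptor of mesenchyme and of primitive endoderm, was lower (-3.78 ± 0.70). Muscle markers gave 4 higher, 1 lower and 2 that did not pass of 7 tested, with a median of 2.13. For both lists the shares over all genes tested in KO XEN against WT XEN were 22.3% higher and 23.9% lower. The muscle list is described next. Their 10 genes summed to 403 and 349 CPM in KO XEN, against 82.9 and 44.5 CPM in WT XEN, with 209 to 297 CPM in KO ESC, and 3 of the 10 had 0 counts in KO XEN. The titin gene Ttn made up 192 to 281 CPM of the sum in KO ESC. The cardiac and skeletal actin genes Actc1 (6.95 ± 0.59) and Acta1 (2.46 ± 0.40) were higher, and Ttn was lower (-2.86 ± 0.55) and not called without KO XEN 5-3. Mitochondrial transcripts, 0.781% and 0.979% of counts for KO XEN, against 1.94% and 2.64% for WT XEN and 2.79% to 3.26% for KO ESC, also differed between the groups, and their part was not tested.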

How the data were processed

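The submitters' processing notes name STAR 2.4.2a, featureCounts 1.4.5-p1 and the build mm10. What the authors deposited is 1 table of unnormalised read counts for 43629 Ensembl genes, whole numbers in every column, with the strand setting, annotation release and filters not given in the sources used here. Libraries were made with the Illumina TruSeq RNA Sample Prep Kit per the labels, which do not state whether strand was kept. Symbols, positions and exon lengths came from GENCODE release M21 (GRCm38, the assembly of mm10), which matched 42548 identifiers. The 1081 unmatched identifiers held 0.136% of counts and stayed in the tests.

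All 7 libraries entered 1 edgeR 4.0.16 quasi-likelihood fit in R 4.3.3 with 3 groups, TMM scaling and filterByExpr, which left 18426 genes (4 residual degrees of freedom, common biological coefficient of variation 0.268). Adjusted p is Benjamini-Hochberg over these genes, called below 0.05, SE is the log2 fold change over the square root of F, and CPM uses TMM-scaled library sizes. DESeq2 1.42.0 was an alternative. A run on simulated counts checked the code only and does not measure error rates in these data. Library pairs within a group differed beyond sampling noise (chi-square per degree of freedom from 21.1 to 103). None was therefore treated as 1 library sequenced again. The lowest value was that of KO ESC 5-3_1 and 5-3_2. Separate libraries from 1 culture could also differ beyond sampling noise, so the test cannot tell whether a pair shares a culture.

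Line labels pair C4 and 5-3 across KO XEN and KO ESC, although their differences in the 2 states correlated only at 0.0797 over 18426 genes. The reported fit leaves line out, and 1 alternative includes it as a block with wild type placed midway between the lines.

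The members and the 14 other gene lists were chosen with earlier results of these data known. Named genes are the 10 members, Ago2, Rest and Ptbp1, up to 4 called genes per list with the smallest adjusted p in KO XEN against WT XEN with 1 that goes against its list, and the 3 genes nearest to Tubb3 and Dcx. The values of 1 gene that this rule names are not reported here. Promoter windows came from RefSeq.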

Additional observations from a re-analysis of the deposited data

How the results depend on the processing

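In each comparison 14 alternatives were run (other scalings, no filter, DESeq2, fewer libraries, line as a block). In KO XEN against WT XEN, 7 genes were higher, or 6 without WT XEN B, and the genes called lower were 0, or 1 with line as a replicate block, 1 without both C4 libraries and 0 to 1 with 1 library left out (1 without KO ESC C4). In WT XEN against KO ESC the number higher was 2, or 4 without both C4 libraries and 1 with only the 2 groups compared. Nes was a further gene higher in WT XEN against KO ESC with line as a block, without KO ESC C4 and in DESeq2. In KO XEN against KO ESC the calls that changed were those of Tubb3 and Nefl, given above with their settings. The direction changed only for Map2 and Nefm, neither past the threshold there. Map2 in KO XEN against KO ESC was 0.45 without both C4 libraries and -0.29 to 0.35 with 1 library left out, and in WT XEN against KO ESC 0.0553 and -0.63 to 0.0388. Nefm in KO XEN against KO ESC was -2.78 to 0.98 with 1 library left out, and in WT XEN against KO ESC -0.44 to 1.98 and -0.12 with upper-quartile scaling. The cause was not tested. Upper-quartile scaling shifted all genes by 0.06, -0.12 and -0.17 (log2) in the 3 comparisons. The block changed 2 member calls, Nefm and Nes, given above with their values, and no other. Stmn4 in WT XEN against KO ESC has no value with only the 2 groups compared, where it missed the filter on low counts. Genes called overall ranged from 5743 to 9431 in KO XEN against WT XEN. With 1 library left in a group, that library is assumed to vary like the others. Depth limits Dcx, Stmn3 and Stmn4 in the groups with 0 to 4 counts.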

Other observations

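Genes with the pattern nearest to that of Tubb3 over the 7 libraries, by root-mean-square difference of centred log2 CPM among 10676 candidates, were Myrf, a membrane-tethered transcription factor (0.0583), Gli2, a hedgehog effector (0.157), and Mcam, an adhesion molecule (0.209). Myrf stood at 144 and 180 CPM in KO XEN, against 29.8 and 19.1 CPM in WT XEN, with 115 to 124 CPM in KO ESC. Nearest to Dcx were Areg, an EGF receptor ligand (0.358), Crispld2, a secreted protein (0.450), and Ifitm10 (0.456). Areg stood at 10.6 and 13.1 CPM in KO XEN, against 0.849 and 0.691 CPM in WT XEN and at most 0.0200 CPM in KO ESC.

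Over all genes tested in KO XEN against WT XEN, 22.3% were higher and 23.9% lower. Neural crest markers gave 4 higher, 0 lower and 6 that did not pass of 10 tested there (median log2 fold change 1.47). They were Snai2 (1.70 ± 0.33), Ngfr (3.22 ± 0.75), Sox10 and Pax3 (1.78 ± 0.61), with edgeR adjusted p from 0.00434 to 0.0449. The number higher was 1 without WT XEN B or KO XEN 5-3 and 2 without KO ESC 5-3_1, WT XEN A, KO XEN C4 or both C4 libraries, in DESeq2 and with no filter on low counts. Sox10, which defines migrating crest and its glia, stood at 0.341 ± 0.134 CPM in KO XEN, against 0.0412 ± 0.0192 CPM in WT XEN, near the limit of detection. Glial markers gave 2 higher, 0 lower and 4 that did not pass of 6 tested, with a median of 1.17. They were Cnp (1.22 ± 0.23) and the glutamate transporter Slc1a2, at 13.8 CPM in KO XEN C4 and 0.800 CPM in KO XEN 5-3 against 0.274 and 0.249 CPM in WT XEN. The number higher was 1 without WT XEN A, WT XEN B, KO XEN C4 or both C4 libraries, and without KO XEN 5-3 there was 1 lower.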
